A study of Mus musculus with 24 samples.

Results

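The libraries compared here are 8 of the 24 in a study of mouse bone marrow with mutation of Srcap, the ATPase of a chromatin remodelling complex that exchanges histone H2A for H2A.Z. They are the 4 labelled as isolated bone marrow B cells and the 4 labelled as isolated bone marrow T cells, all chosen by label, sequenced as poly(A) RNA and taken 2 weeks after transplantation. Each label holds 2 WT and 2 Srcap mutant libraries of C57BL6/J mice. Of the allele the labels say only that it is mutant, and they do not give the recipients, the donor cell number or whether the sorted cells came from the graft. The shared extraction protocol names 30000 sorted hematopoietic stem and progenitor cells, also for these 8 libraries. The libraries labelled T cells carried neutrophil RNA, and are called T-labelled throughout. The comparison is therefore one of bone marrow B cells with granulocyte-rich RNA from the same transplantation time, with genotype as a covariate.

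B cells develop in the bone marrow from pro-B cells that join heavy chain gene segments with the RAG recombinase, through pre-B cells that test the chain with a surrogate light chain, to IgM-bearing immature B cells. Each of these steps is kept on the B lineage course by transcription factors such as EBF1 and PAX5. Neutrophils mature in the same marrow under C/EBP factors, and they fill primary, secondary and tertiary granules in turn before they leave with the receptors needed to reach sites of infection.

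Promoter sequences are shown for 2 genes of each lineage, because factors known for both lineages act at such sequences and the genes lie at opposite ends of the comparison. They are the 250 bases before the annotated start, from RefSeq on build GRCm38.p6, all on the plus strand and written 5′ to 3′. Cd79a (chr7:24897247-24897496) and Vpreb3 (chr10:75948050-75948299) encode a signalling chain of the B cell receptor and a chain of the surrogate light chain complex. Elane (chr10:79886062-79886311) and Ltf (chr9:111019042-111019291) encode neutrophil elastase of primary granules and lactoferrin of secondary granules. Capitals mark matches, on either strand, to the octamer ATGCAAAT of POU factors, CCCNNGGGA of EBF factors, AGGAAGT of ETS factors or TTNNGCAA of C/EBP factors, and no marked matches overlap.
Cd79a: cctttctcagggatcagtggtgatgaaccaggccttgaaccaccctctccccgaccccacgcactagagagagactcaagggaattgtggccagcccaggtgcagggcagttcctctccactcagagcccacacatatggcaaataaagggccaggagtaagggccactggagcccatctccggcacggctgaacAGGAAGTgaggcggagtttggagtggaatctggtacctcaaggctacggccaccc
Vpreb3: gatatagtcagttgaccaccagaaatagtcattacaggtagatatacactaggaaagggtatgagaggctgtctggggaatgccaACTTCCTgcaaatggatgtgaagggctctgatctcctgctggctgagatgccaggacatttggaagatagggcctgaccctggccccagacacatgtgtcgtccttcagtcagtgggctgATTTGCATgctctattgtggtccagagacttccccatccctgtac
Elane: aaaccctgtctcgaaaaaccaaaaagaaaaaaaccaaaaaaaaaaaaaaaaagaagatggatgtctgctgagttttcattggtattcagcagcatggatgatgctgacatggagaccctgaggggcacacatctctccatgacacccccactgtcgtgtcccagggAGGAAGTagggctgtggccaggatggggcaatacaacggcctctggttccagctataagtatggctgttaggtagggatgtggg
Ltf: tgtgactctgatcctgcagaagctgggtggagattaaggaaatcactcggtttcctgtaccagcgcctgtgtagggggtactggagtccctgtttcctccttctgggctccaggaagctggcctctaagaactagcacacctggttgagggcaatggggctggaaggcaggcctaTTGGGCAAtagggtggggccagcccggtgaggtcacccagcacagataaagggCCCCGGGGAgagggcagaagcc
The Cd79a window holds an ETS match 55 bases before the start, and the Vpreb3 window holds an octamer 45 bases and an ETS match 165 bases before it. Elane has an ETS match 84 bases before its start. Ltf has a C/EBP match at 75 bases and an EBF match at 22 bases. Of all 32851 such windows of 27025 genes, 1.6% hold the octamer, 5.6% the EBF motif, 7.69% the ETS motif and 9.56% the C/EBP motif. Among the genes over 2-fold higher in B cell libraries, 1215 matched a RefSeq window, and their 1564 windows held the 4 motifs at 2.17%, 8.12%, 7.23% and 6.97% in the same order. Among those over 2-fold lower, 1972 genes matched with 2603 windows, at 1.54%, 8.18%, 11.4% and 9.95%. Of 12 windows of B cell marker genes 5 held the ETS motif, 2 the octamer, 2 the C/EBP motif and 1 the EBF motif. Of 17 windows of neutrophil marker genes 9 held the ETS motif, 8 the C/EBP motif, 3 the EBF motif and none the octamer, and of 11 windows of primary granule genes none held the C/EBP motif. A match of letters is not a binding site, and a window without a match to these strict strings may still hold one.

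The files hold gene-level counts, with totals of 40872424 to 57324218 counts per library. Levels are given below as scaled CPM, counts relative to library size after trimmed-mean (TMM) scaling, whose factors were 1.27 to 1.29 for B cell and 0.765 to 0.804 for T-labelled libraries. Differences are log2 fold changes of B cell over T-labelled libraries ± SE. The SE is the absolute log2 fold change over the square root of the F statistic of edgeR's quasi-likelihood test. Calls had p under 0.05 in that test after Benjamini-Hochberg adjustment across the 17484 genes tested. The labels call the samples independent without naming animals, so p-values measure the spread between these libraries. In sorted bulk RNA, fewer cells of a type and less RNA per cell cannot be told apart.

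Srcap itself was present in every library. Its level was 16 and 10.8 CPM in the WT and 12.6 and 15.8 CPM in the mutant B cell libraries, and at 7.58 and 9.31 CPM in the WT and 8.49 and 7.46 CPM in the mutant T-labelled libraries. Mutant and WT values overlapped within each label, while all 4 B cell libraries were above all 4 T-labelled ones. The difference between labels was 0.75 ± 0.18 (adjusted p = 0.00235), and that between genotypes was 0.00 ± 0.18 (adjusted p = 0.998). With the 4 WT libraries alone the label difference missed the threshold (adjusted p = 0.0684).

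The markers went with the B label and against the T label. Cd79a (GRCm39 chr7:24596806-24601622) stood at 814 and 912 CPM in the WT and 804 and 1068 CPM in the mutant B cell libraries, and at 83.2 and 109 CPM in the WT and 84 and 67.2 CPM in the mutant T-labelled libraries. The B cell libraries were all above the T-labelled ones, by 3.40 ± 0.16 (adjusted p = 2.54e-08). S100a8, one chain of the neutrophil protein calprotectin, stood at 1114 and 1907 CPM in the WT and 1185 and 485 CPM in the mutant B cell libraries, and at 25681 and 28120.0 CPM in the WT and 30421 and 34185 CPM in the mutant T-labelled libraries. Every T-labelled library was above every B cell library, the difference was -4.71 ± 0.45 (adjusted p = 1.43e-04), and mutant replicate 2 was the lowest B cell library. Cd3e, which encodes a CD3 chain and was named after its values were seen, stood at 1.5 and 1.21 CPM in the WT and 0.515 and 0.307 CPM in the mutant B cell libraries, and at 1.94 and 0.672 CPM in the WT and 0.115 and 0.867 CPM in the mutant T-labelled libraries. The labels overlapped for Cd3e, with -0.10 ± 0.67 (adjusted p = 0.915), and the sign of this small difference changed with upper quartile scaling (0.12) and with library totals (0.60). All 22 T cell markers together summed to 48.5 to 67.4 CPM in T-labelled and 174 to 216 CPM in B cell libraries, against 183990.0 to 220420.0 CPM for 18 neutrophil markers in the T-labelled libraries. Cd2, the T cell marker with the highest mean, was higher in B cell libraries by 3.28 and is also carried by mouse B cells. The larger sum in B cell libraries is therefore not read as more T cell RNA. Bcl11b, a T cell transcription factor, had too few counts to be tested and stood at 0 to 0.452 CPM in the T-labelled libraries. T cell markers did not all go 1 way. Among the 21 tested, 11 were called higher in B cell libraries and 3 lower, beside 30.6% and 28.5% of all genes tested. The lower ones included Cd6 (-2.68) and Cd3d, which encodes another CD3 chain.

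**Figure D1:**
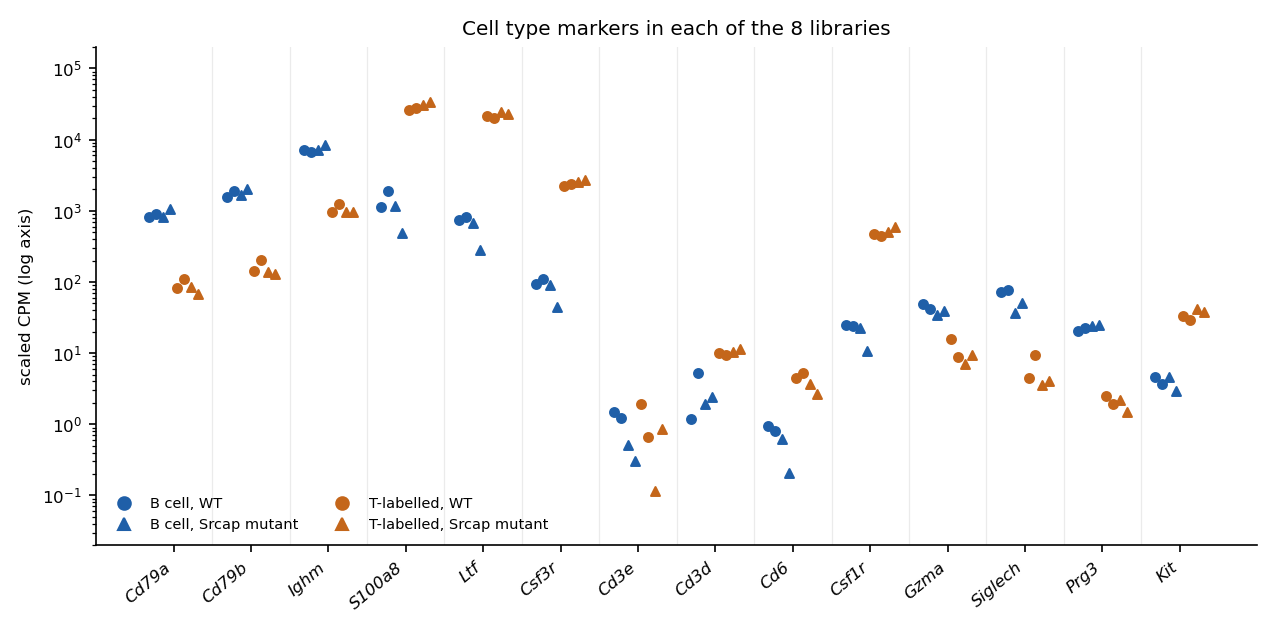
Scaled CPM (log axis) of cell type marker genes in each of the 8 libraries, blue for B cell and orange for T-labelled, with circles for WT and triangles for Srcap mutant. Cd79a lay at 804 CPM or more in the B cell libraries and at 109 CPM or less in the T-labelled ones, and S100a8 in the reverse order.

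The 2 labels differed in most genes. In B cell libraries 5353 genes (30.6%) were higher and 4982 (28.5%) lower, together 59.1% of those tested, and 1913 (10.9%) were higher and 2704 (15.5%) lower when tested against a fold of 2. All 4 B cell libraries lay above all 4 T-labelled libraries for 5033 genes (28.8%), and below them for 4826 (27.6%). The fold sizes were lopsided among the 7937 genes averaging 4 or more log2 CPM. On the B side 156 genes were 8-fold to 16-fold higher and 1 was over 16-fold higher. On the T-labelled side 243 were 8-fold to 16-fold higher, 372 were over 16-fold higher, of which 70 were over 32-fold, and none reached 64-fold. The median over all genes tested was 0.17 with TMM scaling, 0.10 with RLE size factors, 0.38 with upper quartile scaling and 0.86 with library totals alone, so small differences are read against it. Of the calls, 51.8% were higher in B cell libraries with TMM scaling, and 74.7% with library totals, which gave 9175 higher and 3103 lower.

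Few genes took many of the reads on the T-labelled side. The 10 genes with the most counts held 15.95% to 18.2% of all counts there, led by S100a9 at 5.01% to 6.21%, against 4.14% to 4.68% for the 10 highest in B cell libraries. Per transcript length, S100a9, the partner of S100a8, stood at 236243 ± 17762 TPM (SD, n = 4) in T-labelled libraries. In B cell libraries it stood at 21350.0 ± 10115 TPM, beside 15617 ± 2184 TPM for Ighm, the IgM heavy chain and the immunoglobulin gene with the most reads. These 2 means in B cell libraries differed by less than the SD of S100a9.

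**Figure D2:**
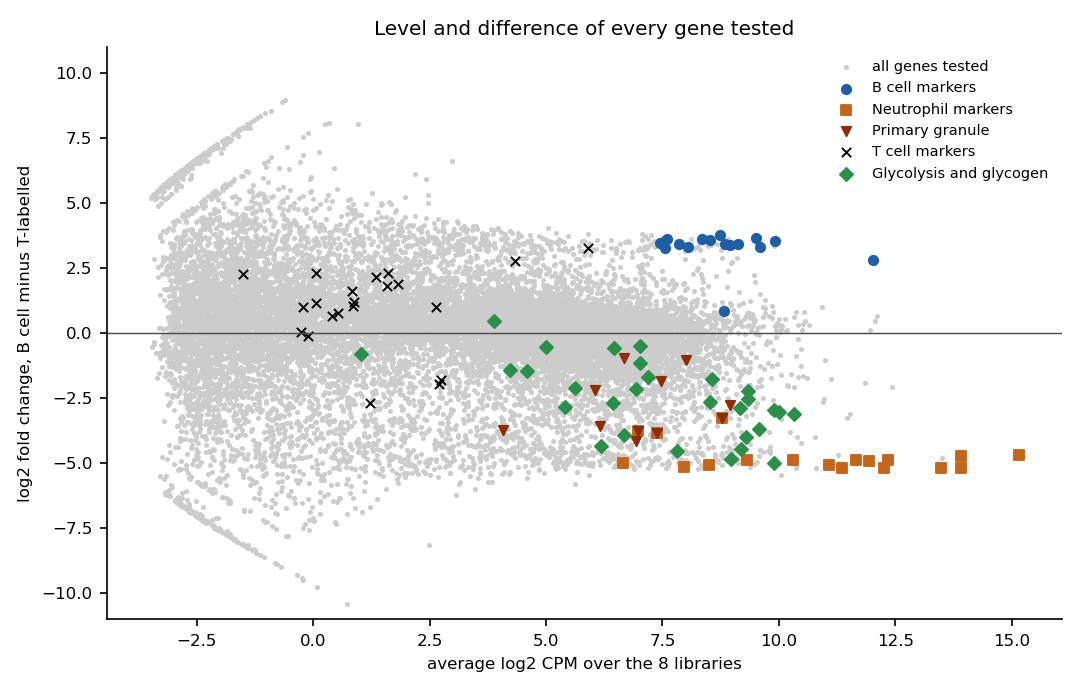
Each point is 1 of the 17484 genes tested, with average log2 CPM over the 8 libraries on the horizontal axis and the log2 fold change of B cell over T-labelled libraries on the vertical axis. Grey points are all genes and marked points are members of lists. B cell markers lie in a band with a median of 3.43, and neutrophil markers in one with a median of -4.92.

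The largest differences, among genes averaging 4 or more log2 CPM, were led on the B side by a gene model without a known role and on the T-labelled side by a transporter. 4930426D05Rik was 16.4-fold higher in B cell libraries, at 41.1 and 74.2 CPM in the WT and 68.5 and 64.7 CPM in the mutant B cell libraries, and at 4.89 and 3.91 CPM in the WT and 3.52 and 2.94 CPM in the mutant T-labelled libraries. The 2 labels were far apart, and the lowest B cell library was WT replicate 1. Cd72, an inhibitory co-receptor of B cells, and Slamf6, an adhesion receptor of lymphocytes, were among the 15 largest, at 3.77 ± 0.14 and 3.75 ± 0.11, as was the kappa segment gene Igkv1-117, at 3.86 ± 0.15. Myl4, a myosin light chain of atrial muscle, was at 251 to 274 CPM in B cell and 16.2 to 21.7 CPM in T-labelled libraries, with 3.73 ± 0.10, and Scn4a, a muscle sodium channel, differed by 3.89 ± 0.19. Myosin binding protein gene Mybpc2 and the muscle kinase gene Srpk3 differed by 3.84 ± 0.38 and 3.81 ± 0.18. On the other side Slco4c1, an organic anion transporter, was 55.6-fold higher in T-labelled libraries, at 2.21 and 2.11 CPM in the WT and 1.71 and 1.03 CPM in the mutant B cell libraries, and at 92.2 and 87 CPM in the WT and 104 and 106 CPM in the mutant T-labelled libraries. The B cell libraries were all low, and mutant replicate 2 was the lowest. Fn1, which encodes fibronectin, fell by 5.45 on the log2 scale, from 1499.9 to 2643 CPM in T-labelled to 22.7 to 57.8 CPM in B cell libraries. Tlr5, the receptor for flagellin, and Gpr84, a receptor for medium-chain fatty acids, differed by -5.28 ± 0.23 and -5.36 ± 0.72.

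The B cell receptor and its co-receptors were higher in B cell libraries. All 16 B cell markers were called higher, 15 of them over 2-fold, with a median of 3.43. Cd79b, the second signalling chain, stood at 1556 to 2049.9 CPM in B cell and 131 to 202 CPM in T-labelled libraries. The labels were far apart, by 3.55 ± 0.15. Ms4a1, which encodes CD20, differed by 3.63 ± 0.31, and Ighm by 2.82 ± 0.12. Among the 28 genes of B cell receptor signalling, 16 were higher and 8 lower, with a median of 1.01, beside 30.6% and 28.5% of all genes tested. Library totals gave 20 higher and 3 lower. With TMM scaling the lower members included Bcl10 of the CARD adaptor complex (-1.05 ± 0.09), the phosphatase gene Ptpn6 (-0.94 ± 0.08) and the phospholipase gene Plcg2 (-0.92 ± 0.08). These genes are used by other receptors as well. Bcl7a, whose product belongs to the BAF remodelling complex, was in this list with 3.44 ± 0.20, and Cr2, the complement receptor CD21, with 3.63 ± 0.31.

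Transcription factors split by lineage. All 20 B lineage factors were higher in B cell libraries, 16 of them over 2-fold, with a median of 2.57. Pax5 stood at 889.9 and 921 CPM in the WT and 1076 and 1206 CPM in the mutant B cell libraries, and at 80.4 and 122 CPM in the WT and 89.7 and 86.2 CPM in the mutant T-labelled libraries. The labels did not overlap, and the difference was 3.43 ± 0.16 (adjusted p = 2.48e-08). Ebf1 differed by 3.46 ± 0.13, the octamer coactivator gene Pou2af1 by 3.43 ± 0.13 and the ETS family gene Spib by 3.32 ± 0.22. Bach2, a repressor that holds off plasma cell fate, differed by 3.36 ± 0.18, and Myb, a factor of immature cells, by 2.73 ± 0.11. Of the 22 myeloid factors 20 were lower in B cell libraries and 1 was higher, with a median of -3.36. Cebpe, needed for secondary granules, stood at 8.79 and 8.7 CPM in the WT and 6.2 and 2.37 CPM in the mutant B cell libraries, and at 214 and 197 CPM in the WT and 222 and 152 CPM in the mutant T-labelled libraries. The labels did not overlap, with -4.98 ± 0.39 (adjusted p = 5.05e-05). Cebpd differed by -4.86 ± 0.20, and Spi1, which encodes the factor PU.1 used in both lineages, by -2.87 ± 0.08. Hdac11, a histone deacetylase, was the member higher in B cell libraries, with 2.997 ± 0.19.

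Genes of early B cells and of V(D)J recombination were higher in 15 of 17 cases and lower in 2, with a median of 3.26. Rag1, the catalytic chain of the recombinase, stood at 663 and 635 CPM in the WT and 903 and 939 CPM in the mutant B cell libraries, and at 84.1 and 109 CPM in the WT and 79.4 and 71.2 CPM in the mutant T-labelled libraries. All B cell libraries were above all T-labelled ones, by 3.18 ± 0.20 (adjusted p = 1.59e-06). Il7r, the receptor for the growth factor of early B cells, differed by 3.62 ± 0.13, Vpreb3, whose promoter is printed above, by 3.30 ± 0.11, and Sox4 by 3.56 ± 0.33. Erg and Bcl6 were the members lower in B cell libraries, at -2.27 ± 0.29 and -2.69 ± 0.08. The surrogate light chain gene Vpreb1 varied among the B cell libraries, at 73.6 and 52.8 CPM in the WT and 48.9 and 33.8 CPM in the mutant B cell libraries, and at 6.89 and 6.29 CPM in the WT and 4.21 and 3.31 CPM in the mutant T-labelled libraries. Dntt, the enzyme that adds bases at segment joins, named after its values were seen, stood at 82.8 and 51.9 CPM in the WT and 32.1 and 26.2 CPM in the mutant B cell libraries, and at 14.7 and 8.67 CPM in the WT and 5.5 and 1.89 CPM in the mutant T-labelled libraries. WT replicate 1 was the highest and mutant replicate 2 the lowest within each label for both genes. The genotype test called neither, with an adjusted p of 0.289 for Vpreb1 and 0.419 for Dntt. DESeq2 called both, with an adjusted p of 0.0405 and 0.00203. The fits without a count filter and with the replicate number as a block also called both (adjusted p = 0.00956 for each gene in the latter). That block joins WT and mutant libraries that have a number in common but no stated link, so it adds no support. Without a filter 445 genes were called for genotype against 6 in the main fit, and that fit is not relied on either. Vpreb2 is a near copy of Vpreb1, so the reads of both are uncertain.

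Genes of the end-joining repair that completes V(D)J recombination were higher in 13 of 18 cases and lower in 2, with a median of 0.82. Xrcc6, which encodes the Ku70 protein that holds DNA ends, stood at 417 and 424 CPM in the WT and 452 and 492 CPM in the mutant B cell libraries, and at 62.6 and 68.2 CPM in the WT and 60.1 and 58.9 CPM in the mutant T-labelled libraries. The labels were far apart, with 2.84 ± 0.09 (adjusted p = 1.14e-11), and Xrcc5, its Ku80 partner, differed by 2.09 ± 0.19. Lig4, the ligase of the pathway, differed by 2.30 ± 0.14, and the polymerase gene Polm by 2.40 ± 0.14. Of 19 genes of homologous recombination, the other main route of break repair, 14 were higher and 1 lower, with a smaller median of 0.41.

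Of 20 genes of mature B cells 17 were higher and 3 lower, with a median of 2.80. Ighd, the IgD heavy chain, stood at 217 and 263 CPM in the WT and 308 and 324 CPM in the mutant B cell libraries, and at 20.6 and 36.1 CPM in the WT and 24.2 and 23.1 CPM in the mutant T-labelled libraries. The difference was 3.41 ± 0.23, with no overlap. Tnfrsf13c, the receptor for the survival factor BAFF, differed by 3.58 ± 0.14, Fcer2a, which encodes CD23, by 3.55 ± 0.19, and the follicle homing receptor gene Cxcr5 by 3.61 ± 0.25. Plasma cell genes were higher in 4 of 9 cases and lower in 1, beside 30.6% and 28.5% of all genes tested. Sdc1, which encodes CD138, differed by 3.45 ± 0.20, and Xbp1, a factor of secretory cells, was lower, at -1.12 ± 0.09. Jchain, the chain that joins IgM and IgA units, stood at 163 and 21.9 CPM in the WT and 17.8 and 31.2 CPM in the mutant B cell libraries, and at 10.6 and 13.8 CPM in the WT and 2.55 and 15.6 CPM in the mutant T-labelled libraries. Its libraries did not overlap between labels, but the difference of 2.18 ± 0.92 missed the threshold (adjusted p = 0.0913). It passed with library totals (adjusted p = 0.0359), with a minimum of 100 counts in 4 libraries (adjusted p = 0.0214), in DESeq2 (adjusted p = 0.0201) and without mutant T-labelled replicate 2 (adjusted p = 0.0311). Without a count filter the adjusted p was 9.27e-62, far below the other fits. That setting also gave 357 interaction calls against 3 in the main fit, so its value is not relied on. The Jchain difference ran from 1.20 to 3.03 with 1 library left out. WT replicate 1 held most of the Jchain reads among the B cell libraries.

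Immunoglobulin gene segments rose across all 3 loci. At the heavy chain locus 109 of 133 tested genes were higher in B cell libraries and 3 lower, with a median of 3.49. These segments took 0.992% to 1.27% of the counts in B cell and 0.0848% to 0.119% in T-labelled libraries. At the kappa locus 110 of 118 were higher and none lower, with a median of 3.82, and shares of 0.301% to 0.433% against 0.0182% to 0.0270%. At the lambda locus 9 of 10 were higher and none lower, with a median of 3.55, and shares of 0.170% to 0.216% against 0.00736% to 0.0162%. Variable segments were called higher for 89 of 102 heavy chain and 90 of 97 kappa genes. Segments are similar in sequence, and reads shared between them could be split by the counting, so single segments are uncertain.

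Genes of MHC class II, which presents peptides to T cells, were higher in 11 of 14 cases and lower in 2, with a median of 1.19. H2-Ab1, a chain of the classical molecule, stood at 213 and 228 CPM in the WT and 192 and 243 CPM in the mutant B cell libraries, and at 142 and 122 CPM in the WT and 88.2 and 128 CPM in the mutant T-labelled libraries. The labels did not overlap, and the difference was 0.88 ± 0.13 (adjusted p = 1.08e-04). Ciita, the master coactivator of the class, differed by 1.97 ± 0.17, and H2-Ob, which modulates peptide loading in B cells, by 3.52 ± 0.15.

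**Figure D3:**
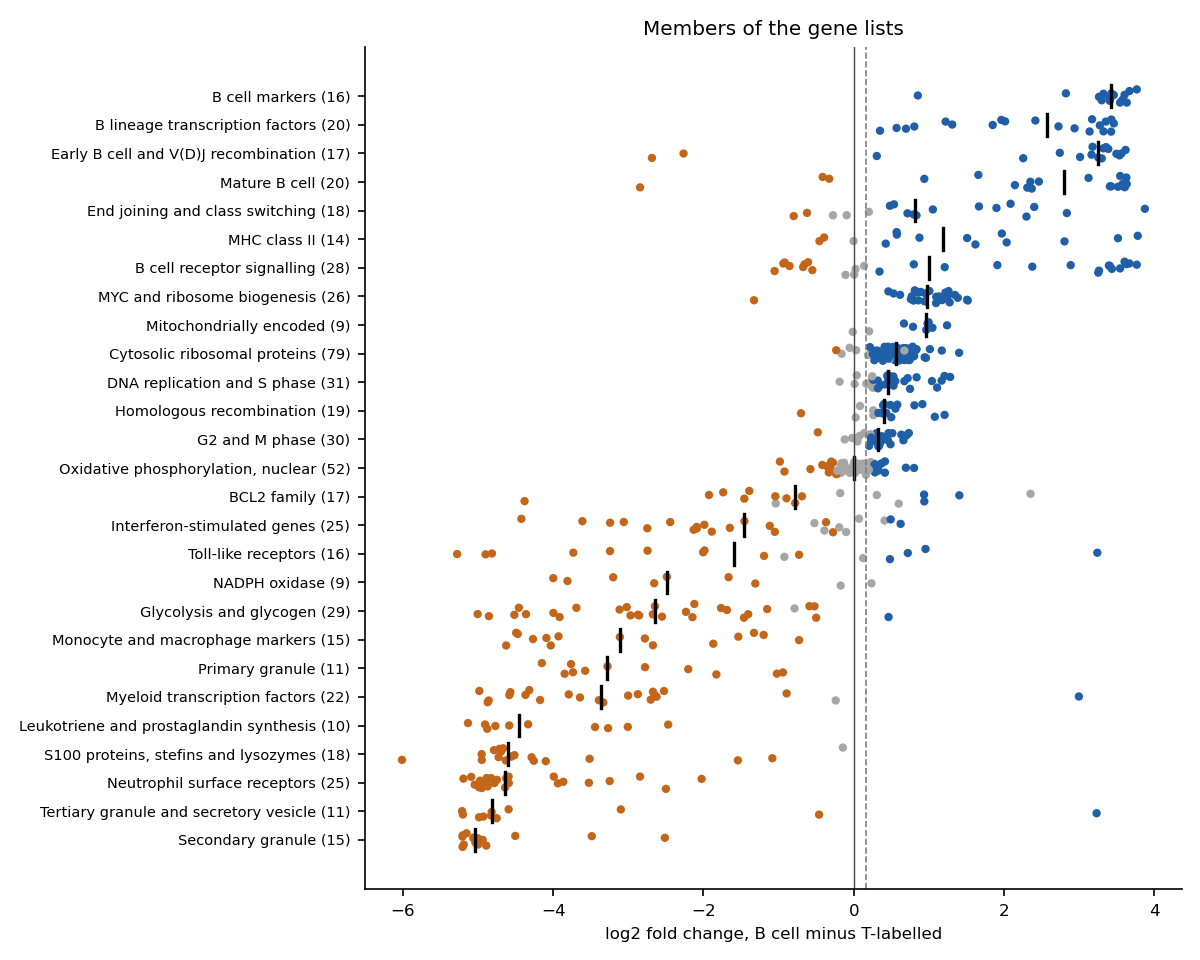
Log2 fold change of B cell over T-labelled libraries for the tested members of gene lists, each point 1 gene (blue called higher, orange called lower, grey not called), with black bars for list medians, a dashed line at the median of all genes and the number of members tested in brackets. Secondary granule genes have a median of -5.04, B cell receptor signalling genes spread on both sides with a median of 1.01, and ribosomal protein genes sit near their median of 0.56.

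Granule genes were higher in T-labelled libraries, with the smallest median difference for primary granules. For primary granules 11 of 11 tested genes were lower in B cell libraries, with a median of -3.28, for secondary granules 15 of 15, with a median of -5.04, and for tertiary granules and secretory vesicles 10 of 11, with a median of -4.82. Mpo, the myeloperoxidase of primary granules, stood at 108 and 76.3 CPM in the WT and 94.5 and 51.2 CPM in the mutant B cell libraries, and at 966 and 631 CPM in the WT and 925 and 660.1 CPM in the mutant T-labelled libraries. The difference was -3.28 ± 0.29 (adjusted p = 8.64e-05), and that of Elane was -3.85 ± 0.37. Ltf of secondary granules stood at 737 and 828 CPM in the WT and 671 and 278 CPM in the mutant B cell libraries, and at 21331 and 20184 CPM in the WT and 24674 and 23018 CPM in the mutant T-labelled libraries. All T-labelled libraries were above all B cell libraries, with a difference of -5.19 ± 0.38 (adjusted p = 3.06e-05), and mutant replicate 2 was again the lowest B cell library. Ngp, a cathelicidin-like granule protein, and Lcn2, which sequesters bacterial siderophores, both differed by -5.21, and Camp, the cathelicidin, by -4.89 ± 0.39. Per length, Ngp stood at 43253 ± 3548 TPM, Camp at 23429 ± 2069 TPM and Mpo at 413 ± 99.2 TPM (SD, n = 4) in T-labelled libraries. In the B cell libraries the primary granule genes stood at a median of 6.44% to 13.6% of their T-labelled mean, and the secondary ones at 1.41% to 4.35%. Mmp9, the gelatinase of tertiary granules, differed by -5.20 ± 0.25. Alpl, alkaline phosphatase of secretory vesicles, went the other way, at 20 and 16.2 CPM in the WT and 11.7 and 11.2 CPM in the mutant B cell libraries, and at 2.21 and 2.75 CPM in the WT and 1.56 and 0.274 CPM in the mutant T-labelled libraries, with 3.23 ± 0.42.

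Receptors and effector systems of neutrophils were higher in T-labelled libraries almost throughout. All 25 surface receptors were lower in B cell libraries, with a median of -4.64. Csf3r, the receptor of the neutrophil growth factor G-CSF, stood at 92.7 and 110.0 CPM in the WT and 91.6 and 44.3 CPM in the mutant B cell libraries, and at 2246 and 2401 CPM in the WT and 2527 and 2666 CPM in the mutant T-labelled libraries. Every T-labelled library was higher, with -4.89 ± 0.31 (adjusted p = 1.17e-05). Cxcr2, which draws neutrophils out of the marrow, differed by -4.87 ± 0.37, C5ar1, the complement anaphylatoxin receptor, by -5.05 ± 0.20, and Ltb4r1, the leukotriene B4 receptor, by -5.20 ± 0.64. Of 18 S100, stefin and lysozyme genes 17 were lower and none higher, among them Lyz2 (-4.79 ± 0.33) and S100a6 (-4.63 ± 0.31). Stefin genes are near copies of each other, and their values are uncertain. Of 9 genes of the NADPH oxidase, which makes the respiratory burst, 7 were lower in B cell libraries and none higher. Cybb, its membrane chain, stood at 216 and 250.4 CPM in the WT and 201 and 165 CPM in the mutant B cell libraries, and at 2972 and 3090.3 CPM in the WT and 3513 and 3700.4 CPM in the mutant T-labelled libraries. B cell libraries held it at over 100 CPM, and the difference was -3.999 ± 0.14.

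Lipid mediator, inflammasome and sugar metabolism genes showed the same side. All 10 tested genes of leukotriene and prostaglandin synthesis were lower in B cell libraries, with a median of -4.46, among them Alox5 (-4.91 ± 0.37) and its activating protein gene Alox5ap (-4.77 ± 0.32). Of 15 inflammasome and interleukin 1 genes 11 were lower and none higher, among them Nlrp3 (-5.11 ± 0.27), Il1rn (-5.05 ± 0.23) and Il1b (-4.74 ± 0.35). Of 29 genes of glycolysis, glycogen and the pentose phosphate pathway, 27 were lower in B cell libraries, 23 of them over 2-fold, and 1 higher, with a median of -2.65. Pkm, the pyruvate kinase of the last glycolytic step, stood at 308 and 282 CPM in the WT and 235 and 242 CPM in the mutant B cell libraries, and at 2282 and 2168 CPM in the WT and 2546 and 2217 CPM in the mutant T-labelled libraries. No libraries overlapped between labels, with -3.12 ± 0.11 (adjusted p = 1.93e-11). Pygl, which releases glucose from glycogen, differed by -5.01 ± 0.28, the hexokinase gene Hk3 by -4.86 ± 0.31 and G6pdx, which feeds NADPH production, by -3.998 ± 0.14.

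Markers of other cell types were read under both labels. All 15 monocyte and macrophage markers were lower in B cell libraries, with a median of -3.11, and their sum was 3951 to 4836 CPM in T-labelled and 219 to 410 CPM in B cell libraries. Csf1r, the growth factor receptor of the monocyte lineage, differed by -4.63 ± 0.31. Of 21 tested T cell markers 11 were higher in B cell libraries and 3 lower, the latter including Cd3d (-1.95 ± 0.40) and Cd6 (-2.68 ± 0.41). Cd2, one of the higher ones (3.28 ± 0.17), is also carried by mouse B cells. Cd3d missed the threshold in the WT libraries alone (adjusted p = 0.0908). NK cell markers were higher in 8 of 11 cases and lower in 1, Nkg7, with Gzma, a granule protease of NK cells, at 34.4 to 48.6 CPM in B cell and 6.92 to 16 CPM in T-labelled libraries. Of 11 eosinophil, basophil and mast cell genes 4 were higher and 4 lower. Prg3, a granule protein of eosinophils, and Il5ra, the receptor of their growth factor, were higher by 3.52 ± 0.19 and 3.64 ± 0.87, and Siglecf, another eosinophil marker, was lower, at -4.06 ± 0.34. The basophil protease gene Prss34 was lower, at -1.42 ± 0.33, a call lost with library totals (adjusted p = 0.101). Of 10 dendritic cell markers 4 were higher and 2 lower, led by Siglech of plasmacytoid cells (3.47 ± 0.22) and Cd209a (-3.72 ± 0.36). Of 11 tested erythroid genes 1 was called, Car1 at 0.47 ± 0.18, and the call was lost with RLE size factors (adjusted p = 0.0681), in DESeq2 (adjusted p = 0.0592), in either genotype alone and in 5 of 8 refits that left out 1 library, with adjusted p up to 0.135. Library totals gave 8 of 11 erythroid genes higher, with a median of 1.03 against 0.33. Their sum was 15642, 8809, 10865 and 5988 CPM in the B cell libraries, WT before mutant, and 14049, 8172, 9530 and 4567 CPM in the T-labelled ones. These sums were above those of the B cell markers in every T-labelled library, and above those of the neutrophil markers in every B cell library except WT replicate 2. The order of the 4 libraries was the same under both labels, and the part of erythroid RNA in the genotype comparisons was not tested. In the 8 stem and progenitor genes tested, 3 were higher and 3 lower, with a median of -0.19 that turned to 0.03 with upper quartile scaling and 0.51 with library totals. Kit, the stem cell factor receptor, differed by -3.16 ± 0.18. Megakaryocyte genes were lower in 2 of 7 cases and higher in none. Of all genes tested 30.6% were called higher and 28.5% lower, and counts near these shares are not read as results about a cell type.

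Several families had members on both sides, as the genes tested did as a whole, 30.6% of which were called higher and 28.5% lower. In the Src family, which starts signalling below immune receptors, 4 of 9 members were higher in B cell libraries and 3 lower. Blk stood at 309 and 322 CPM in the WT and 369.8 and 424 CPM in the mutant B cell libraries, and at 26.9 and 37.4 CPM in the WT and 28 and 24.6 CPM in the mutant T-labelled libraries. Fgr stood at 46.9 and 48.6 CPM in the WT and 43.1 and 31.1 CPM in the mutant B cell libraries, and at 829 and 835 CPM in the WT and 876 and 880.4 CPM in the mutant T-labelled libraries. The labels were separate for both, in opposite directions, with 3.61 ± 0.16 for Blk and -4.34 ± 0.13 for Fgr. Lck was higher by 2.78 ± 0.15 and Fyn by 1.14 ± 0.11, and Lyn, used in both lineages, was lower, at -0.65 ± 0.08, which turned to a higher value of 0.05 with library totals. In the Tec family, which acts below the Src kinases, 2 of 5 members were higher and 2 lower, and Bmx was lower, at -4.98 ± 0.32. In the Ms4a family, genes of membrane proteins that lie in 1 cluster, Ms4a1 was higher and 9 of 11 tested members were lower, among them Ms4a8a (-5.24 ± 0.33), Ms4a6d (-4.94 ± 0.50) and Ms4a3 (-3.57 ± 0.14). Among 15 Fc receptor genes 5 were higher and 6 lower. The IgM receptor gene Fcmr (3.43 ± 0.32), Fcer2a and Fcrla (3.58 ± 0.22) were on the B side, and the activating receptor genes Fcgr3 (-4.64 ± 0.41), Fcgr4 (-4.59 ± 0.38) and Fcer1g (-4.38 ± 0.29) on the other. Toll-like receptor genes were higher in 4 and lower in 10 of 16 cases. Tlr9, which senses unmethylated DNA, was higher by 0.96 ± 0.13 and Tlr12 by 3.24 ± 0.23, against Tlr13 at -4.82 ± 0.28, Tlr8 at -4.90 ± 0.37 and Tlr2 at -3.73 ± 0.12. Homing receptors were higher in 6 and lower in 11 of 18 cases, with Ccr7 (3.60 ± 0.15), which guides lymphocytes to lymph nodes, against Ccr1 (-4.60 ± 0.30) and Itgam (-4.59 ± 0.21), a chain of the neutrophil integrin Mac-1.

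Genes of the growth machinery were higher in B cell libraries by small folds. The counts below stand beside 30.6% higher and 28.5% lower among all genes tested, whose median was 0.17. Of 79 cytosolic ribosomal protein genes 71 were higher and 1 lower, with a median of 0.56, and MYC and ribosome biogenesis genes in 25 of 26, with a median of 0.98. The lower ribosomal gene was Fau, at -0.23 ± 0.09, which turned to 0.47 with library totals and whose call was lost in 4 of 8 refits that left out 1 library. Npm1, a nucleolar chaperone of ribosome assembly, stood at 416 and 470.3 CPM in the WT and 411 and 377 CPM in the mutant B cell libraries, and at 191 and 178 CPM in the WT and 174 and 196 CPM in the mutant T-labelled libraries. The labels did not overlap, with 1.18 ± 0.08 (adjusted p = 2.43e-08). Polr1a, the large chain of RNA polymerase I, was the exception of the second list, at -1.33 ± 0.08. Mitochondrially encoded genes were higher in 7 of 9 tested cases and lower in none, with a median of 0.97, such as mt-Nd5 (1.05 ± 0.11), a chain of respiratory complex I. The nuclear genes of oxidative phosphorylation gave no common direction, with 10 higher and 11 lower of 52 and a median of 0.00. Their direction depends on the scaling, since upper quartile scaling moved the median to 0.22 and library totals to 0.70. Some copies of ribosomal protein genes are processed pseudogenes of near-identical sequence, so single members are uncertain.

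Cell cycle genes were expressed under both labels. Of 31 S phase genes 22 were higher in B cell libraries and none lower, with a median of 0.45, and of 30 genes of G2 and M phase 22 were higher and 1 lower, with a median of 0.32. Among all genes tested 30.6% were higher and 28.5% lower, with a median of 0.17. The higher counts moved with the scaling, to 20 and 17 with RLE size factors and to 31 and 30 with library totals. Top2a, which separates DNA strands in dividing cells, stood at 880.1 and 877 CPM in the WT and 848 and 753 CPM in the mutant B cell libraries, and at 609 and 595 CPM in the WT and 541 and 603 CPM in the mutant T-labelled libraries. The labels did not overlap, and the difference was 0.52 ± 0.08 (adjusted p = 4.76e-05). Anln, the lower one, differed by -0.48 ± 0.08, which turned to 0.22 with library totals. Uhrf1, which keeps DNA methylation through replication, differed by 1.04 ± 0.12, and Pcna, the replication clamp, by 0.84 ± 0.09. Cyclin D genes split. Ccnd2 was higher in B cell libraries by 2.25 ± 0.10, and Ccnd3 lower, at -0.81 ± 0.10, a call lost with library totals (adjusted p = 0.338). Cdk4, their partner, was higher by 1.01 ± 0.09, and the inhibitor gene Cdkn2d lower, at -1.06 ± 0.07.

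In a list of 14 genes of the SRCAP complex, of H2A.Z and of 2 related remodelling ATPases, Ep400 and Ino80, 10 were higher in B cell libraries and 2 lower, with a median of 0.47. The shares over all genes tested, for this list and the lamina list below, were 30.6% higher and 28.5% lower, with a median of 0.17. Anp32e, a chaperone that removes H2A.Z, stood at 356 and 295 CPM in the WT and 330.0 and 309.7 CPM in the mutant B cell libraries, and at 184 and 159.6 CPM in the WT and 173 and 161 CPM in the mutant T-labelled libraries. Every B cell library was higher, with 0.93 ± 0.08 (adjusted p = 3.24e-07). Ruvbl1, an ATPase shared by several remodelling complexes, differed by 1.10 ± 0.12. The 2 genes for H2A.Z went apart, with H2afv higher by 0.995 ± 0.09 and H2afz lower, at -0.41 ± 0.08, the latter turning to 0.29 with library totals. Znhit1, a small subunit of the complex, was the other lower member, at 13.5 and 14.8 CPM in the WT and 11.3 and 10.7 CPM in the mutant B cell libraries, and at 56.6 and 55.8 CPM in the WT and 56.2 and 45 CPM in the mutant T-labelled libraries. All T-labelled libraries were above all B cell libraries, with a difference of -2.10 ± 0.11 (adjusted p = 1.37e-09). Genes of the nuclear lamina and envelope were higher in 2 and lower in 8 of 14 cases, a balance that turned to 8 higher and 3 lower with library totals. Syne1, which ties the nucleus to the cytoskeleton, differed by -4.38 ± 0.19, Sun2 by -2.48 ± 0.09 and Lbr, the lamin B receptor linked to the lobed neutrophil nucleus, by -1.002 ± 0.08.

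Survival and interferon genes differed too. Of 17 BCL2 family genes 3 were higher in B cell libraries, Bcl2 (0.94 ± 0.19), Bcl2l1 (0.94 ± 0.15) and Bmf (1.41 ± 0.08), and 9 were lower, such as Pmaip1 (-1.93 ± 0.16), which encodes an antagonist of the survival protein MCL1. Library totals gave 5 higher and 4 lower in this family, with a median of -0.08 against -0.78, and 59.1% of all genes tested were called. With the WT libraries alone Bcl2 missed the threshold (adjusted p = 0.0877). Of 25 interferon-stimulated genes 17 were lower in B cell libraries and 2 higher, with a median of -1.45. Ifitm3, an antiviral membrane protein, stood at 33.7 and 56.3 CPM in the WT and 27.6 and 16.4 CPM in the mutant B cell libraries, and at 612 and 747 CPM in the WT and 653 and 698 CPM in the mutant T-labelled libraries. The difference was -4.42 ± 0.35, with no overlap, and Oas3, a sensor of double-stranded RNA, differed by -3.61 ± 0.20. The interferon list summed highest in WT replicate 2 under both labels, at 1335 CPM in B cell and 4148 CPM in T-labelled libraries, against 1032 to 1128 CPM and 2940.3 to 3558 CPM in the others.

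Each label also held low levels of the other's genes, at values that differed between libraries. The 16 B cell markers stood at a median of 8.87% and 12.1% of their B cell mean in the WT T-labelled libraries and at 8.53% and 7.67% in the mutant ones. The 18 neutrophil markers stood at a median of 3.70% and 4.55% of their T-labelled mean in the WT B cell libraries and at 3.34% and 1.53% in the mutant ones. Mutant replicate 2 was lowest under both labels. Neutrophil surface receptors were at 4.06%, 6.30%, 4.09% and 1.81% in the 4 B cell libraries, WT before mutant, and monocyte markers at 14.2%, 13.9%, 10.1% and 3.96%. The marker folds reached 3.77 on the B side and -5.21 on the other, and among all genes averaging 4 or more log2 CPM the log2 fold ran from -5.80 to 4.03. Whether RNA of the other lineage set the levels of single genes there was not tested.

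**Figure D4:**
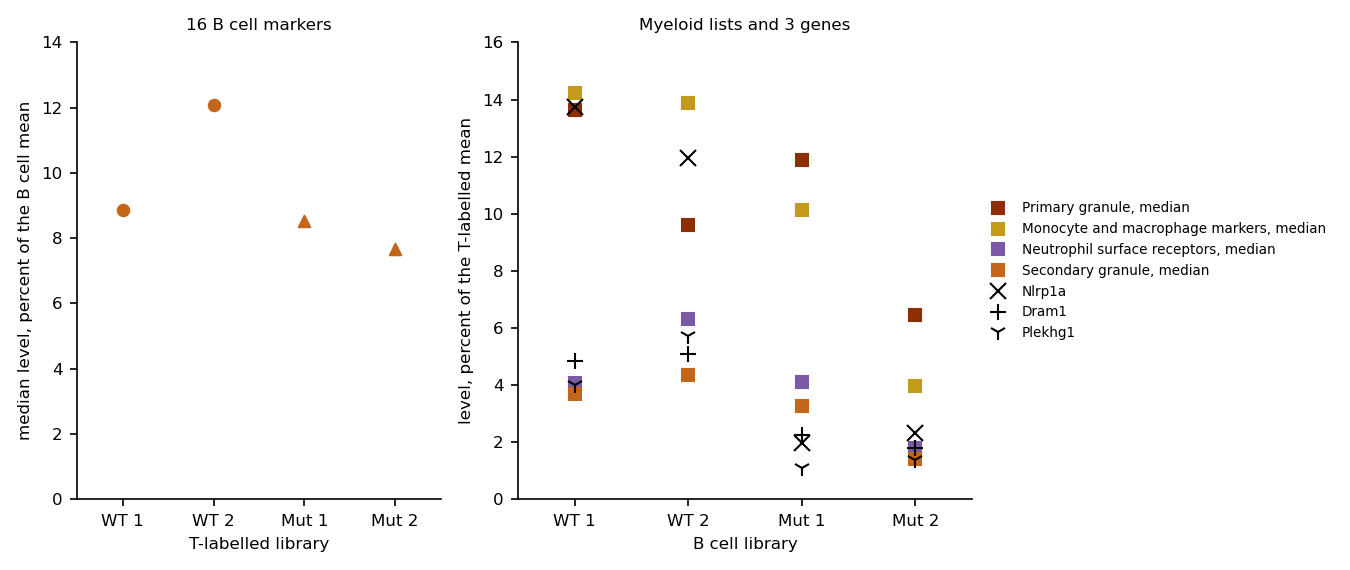
Left, the median level of B cell markers in each T-labelled library, as a percent of their mean in B cell libraries. Right, the median level of myeloid lists in each B cell library as a percent of their T-labelled mean, with Nlrp1a, Dram1 and Plekhg1 as black symbols, which stand at 1.11% to 2.33% in the mutant and at 3.98% to 13.8% in the WT B cell libraries.

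The contrast of B cell and T-labelled libraries differed between genotypes in 3 genes (0.0172% of those tested), while 1286 had an unadjusted p under 0.05. All 3 were genes of the T-labelled side that were lower in mutant than in WT B cell libraries. Nlrp1a, an inflammasome sensor, stood at 3.72 and 3.23 CPM in the WT and 0.53 and 0.63 CPM in the mutant B cell libraries, and at 28.5 and 22.1 CPM in the WT and 26 and 31.4 CPM in the mutant T-labelled libraries. The interaction was -2.76 ± 0.33 (adjusted p = 0.018), with mutant minus WT at -2.58 in B cell and 0.18 in T-labelled libraries. Nlrp1b is a near copy, so the split of reads between them is uncertain. Dram1, a lysosomal membrane protein of autophagy, stood at 4.76 and 5 CPM in the WT and 2.21 and 1.78 CPM in the mutant B cell libraries, and at 95.2 and 88 CPM in the WT and 108 and 103 CPM in the mutant T-labelled libraries. The WT and mutant B cell libraries did not overlap, and the interaction was -1.49 ± 0.20 (adjusted p = 0.0204). Plekhg1, an exchange factor of small GTPases, stood at 2.24 and 3.21 CPM in the WT and 0.62 and 0.775 CPM in the mutant B cell libraries, and at 49.2 and 56.2 CPM in the WT and 59.3 and 59.9 CPM in the mutant T-labelled libraries, with an interaction of -2.14 ± 0.29 (adjusted p = 0.0204). The neutrophil marker level in the B cell libraries moved in the same direction between genotypes, as given above, and its part in these 3 results was not tested. No gene was called without mutant B cell replicate 2 or without any single T-labelled library, and 354 were called without mutant B cell replicate 1. DESeq2 called 140.

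Over both labels, 6 genes (0.0343%) differed between mutant and WT libraries, and 1644 had an unadjusted p under 0.05. Gm43305, a gene model without a known role, stood at 14.1 and 9.69 CPM in the WT and 68.4 and 72.2 CPM in the mutant B cell libraries, and at 1.68 and 1.74 CPM in the WT and 9.82 and 8.44 CPM in the mutant T-labelled libraries. Mutants were above WT under both labels, by 2.50 ± 0.15 (adjusted p = 3.15e-06). Eps8l1, related to an actin regulator, stood at 0.378 and 0.246 CPM in the WT and 18.4 and 16.8 CPM in the mutant B cell libraries, and at 0.426 and 0 CPM in the WT and 13 and 8.8 CPM in the mutant T-labelled libraries. It was near background in every WT library, and differed by 5.72 ± 0.51 (adjusted p = 0.00586). Fgd6, an exchange factor for CDC42, was higher in mutants by 0.70 ± 0.11 (adjusted p = 0.0434) and the heat shock gene Hspa1b by 2.22 ± 0.33 (adjusted p = 0.0402), with the caution that Hspa1b has a near-identical neighbour, Hspa1a. H1f0, a linker histone of resting cells, was lower in mutants at 27.6 and 25.8 CPM in the WT and 11.7 and 10.1 CPM in the mutant B cell libraries, and at 44.1 and 41.9 CPM in the WT and 27.4 and 26.8 CPM in the mutant T-labelled libraries. It differed by -0.98 ± 0.14 (adjusted p = 0.0266). Gm4779 had no count in any mutant library and 48 to 268 counts in each WT library (adjusted p = 0.00586). Against a floor of 3 counts per library it was at least 67.6-fold lower in mutant B cell and at least 23.8-fold lower in mutant T-labelled libraries. Leaving out 1 library at a time gave 1 to 6 calls. Gm43305 was called in all 8 refits, while Gm4779 was lost in 2, Eps8l1 in 3, Fgd6 and Hspa1b in 7 each and H1f0 in 8. DESeq2 called 90 genes.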

How the data were processed

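Poly(A) RNA was measured in 8 libraries, 2 WT and 2 Srcap mutant under each of the labels B cells and T cells. The deposited values are raw fragment counts per gene, made by the authors by featureCounts v2.0.1 (paired, reversely stranded, GENCODE M28), per the file headers. FastQC, STAR and Subread are named in the submitters' processing notes, with builds mm10 and mm39, and how STAR was set is not given in the sources used. The file headers place all 8 libraries in 1 directory. Symbols came from the GENCODE M21 table for 52081 of 55414 IDs.

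Genes were kept by filterByExpr (minimum count of 10, total of 15), given TMM factors and modelled with edgeR 4.0.16 (R 4.3.3) by robust quasi-likelihood with label and genotype, or with 1 mean per group for the interaction. The counts and a test against a fold of 2 (glmTreat) used an adjusted p under 0.05. TPM were computed here from the deposited counts and exon lengths. The 4 groups were taken from the labels. The libraries, the 45 gene lists, the promoter genes and the motifs were chosen with earlier results of these data known, and no list test was run. Named genes were Srcap, the 15 largest folds in each direction, the 6 most expressed and up to 6 most changed members of each list, and genes called for genotype or interaction. Cd3e, Bcl11b and Dntt were named after their values were seen. Some genes that this rule names are not reported here.

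The fits were first run on simulated counts in which 200 genes were changed. For the label comparison among 16589 genes, 59.1% of 2-fold and 71.7% of 4-fold changes were called, with 17 false calls. There the labels were alike in every other gene, and as many genes were raised as lowered. The real labels differed in most genes and with lopsided folds, so this simulation cannot show error from the scaling. For the interaction among 16534 genes the shares were 28.3% and 60.0%, with 15 false calls. For genotype among 16505 genes they were 62.6% and 74.4%, with 16 false calls. True calls at 2-fold and 4-fold were 55 and 66 for label, 26 and 57 for the interaction, and 57 and 67 for genotype. In each comparison false calls were thus a larger share of all calls than the adjusted p threshold is set to allow. The real interaction and genotype calls may therefore hold more false ones than that threshold implies. Alternatives were RLE, upper quartile or no scaling factors, other filters, DESeq2 1.42.0, a replicate block and 1 genotype alone. Further ones were exclusion of 451 immunoglobulin and neutrophil marker genes and each library left out in turn. The floor of 3 counts covers counting error only.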

Additional observations from a re-analysis of the deposited data

Results flagged for a closer look

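The difference between B cell and T-labelled libraries changed with genotype for 3 genes by the test of the interaction itself. For Nlrp1a the log2 difference of B cell minus T-labelled libraries was 2.76 lower in mutants than in WT, an interaction of -2.76. Plekhg1 had an interaction of -2.14 and Dram1 one of -1.49. All 3 were lower in both mutant than in both WT B cell libraries, and none of their calls held in the 5 refits without mutant B cell replicate 2 or without 1 T-labelled library, where the adjusted p was 0.0622 to 0.226 for Nlrp1a, 0.0679 to 0.226 for Plekhg1 and 0.0992 to 0.273 for Dram1. The median neutrophil marker level in the B cell libraries was 3.70% and 4.55% of the T-labelled mean in WT and 3.34% and 1.53% in mutants, and its part in these values was not tested.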

How the results depend on the processing

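The label comparison gave 4847 to 5082 genes higher and 4716 to 4862 lower in B cell libraries with 1 library left out. With library totals alone 9175 were higher, 4488 of them over 2-fold, and 3103 lower, and the WT libraries alone gave 1235 over 2-fold higher. Of 143 named genes called between labels, 133 kept direction and call under every alternative run. Many of them were named for large folds in this same fit, so this share does not carry over to all calls. Signs reversed with library totals for Lyn (0.046), H2afz (0.29), Anln (0.22) and Fau (0.47). The uncalled Cd3e was positive with upper quartile scaling (0.12), library totals (0.60), the replicate block (0.23) and WT libraries alone (0.045), and ran from -0.41 to 0.62 with 1 library left out. List medians reversed with upper quartile scaling for stem and progenitor (0.032), Src family (0.046), Fc receptor (0.19) and oxidative phosphorylation genes (0.22), with library totals for the same lists (0.51, 0.52, 0.68 and 0.70) and nuclear lamina genes (0.44), and with RLE factors for Tec kinases (-0.016).

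The interaction count of 3 became 0 with library totals and with a minimum of 100 counts in 4 libraries, 357 with no filter, 140 in DESeq2 and 0 to 354 with 1 library left out. The genotype count of 6 became 19 with 1 mean per group, 2 with the minimum of 100 counts, 445 with no filter, 90 in DESeq2 and 1 to 6 with 1 library left out. The genotype difference of Srcap, near 0, turned negative with 1 mean per group (-1.96e-05), library totals (-0.029) and no filter (-0.00064), and ran from -0.12 to 0.11 with 1 library left out. The cause of these changes was not tested.

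The labels name no pairs. The file headers number the libraries alike under both labels, the second mutant being 3 in each, and whether a number marks 1 animal is not stated. Deviations of equally numbered replicates from their group means correlated at 0.13 between B cell and T-labelled WT and at 0.01 between mutant libraries, and at 0.03 to 0.14 between other groups, so the libraries were treated as unpaired, although erythroid and interferon sums ranked or peaked in the same libraries under both labels. A block for each genotype and replicate number left 5247 genes higher and 4899 lower between labels, and gave an interaction count of 35. For the genotype test the block was the replicate number alone, which joins WT and mutant libraries without a stated link. It gave a count of 124, with Dntt and Vpreb1 called. With 2 libraries per group, the spread rests on few samples.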
